A study of Mus musculus with 4 samples.

Results

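The 53 genes described here encode the machinery that copies DNA and repairs it, and they were taken by symbol from a fixed list: 26 genes of DNA replication, 10 of homologous recombination and interstrand crosslink repair, 8 of end joining, 4 checkpoint kinases and 5 genes of excision and mismatch repair. All 53 had a row in the table of 16591 genes, and all 53 passed the filter on low counts that left 11945 genes for testing. RNA was sequenced from a JQ1-sensitive (JQ1S) and a JQ1-resistant (JQ1R) Eμ-Myc lymphoma line of C57BL/6 origin, with 2 libraries per line. Eμ-Myc cells are mouse B-lineage tumour cells in which an immunoglobulin heavy-chain enhancer drives Myc, and JQ1 blocks the bromodomains through which BET proteins bind acetylated histones. The labels describe both lines as early-passage cells grown in the same high-glucose medium with fetal calf serum and asparagine, and name no drug in that culture. Each group is a single line, so JQ1 resistance cannot be told apart from whatever else distinguishes these lines.

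Library totals lay between 10346007 and 13048103 counts, which makes a single count worth 0.0766 to 0.0967 CPM (counts scaled to library size). All 8 B-cell marker genes were tested, summing to 2023 and 2064 CPM in sensitive against 2226 and 2160 CPM in resistant libraries, and 2 of the 8 (25%, against 3.73% of all tested genes), Blk and Cd22, rose in edgeR. DESeq2 called Cd22 and not Blk. Both calls were lost without resistant replicate 1 (edgeR adjusted p = 0.0521 for Blk and 0.215 for Cd22) and without resistant replicate 2 (0.0689 and 0.111). Of 6 T-cell markers 1 had a row of counts, at 0 to 0.230 CPM, and 0 were tested. Of 3 erythroid markers 0 had a row. Of 6 myeloid markers 4 had a row and 2 were tested. These 4 summed to 3.76 and 4.45 CPM in sensitive against 5.12 and 5.50 CPM in resistant libraries. In bulk RNA, fewer cells of a kind and less RNA per cell cannot be told apart. Nothing in the labels says that the libraries of a line came from separate cultures, so p-values measure the spread between these libraries, which may be technical.

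Before S phase, the origin recognition complex (Orc1 to Orc6) with Cdc6 and Cdt1 loads the Mcm2 to Mcm7 helicase onto origins, a step called licensing, and Cdc45 and the GINS proteins then turn the loaded helicase into a moving fork. Broken DNA is rejoined either by copying a sister chromatid, in homologous recombination, or by direct ligation, in non-homologous end joining, where the Ku proteins hold the ends and DNA ligase IV seals them. End joining also completes V(D)J recombination in developing B cells. Many genes of S phase are known targets of the E2F transcription factors.

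RefSeq promoters (build GRCm38.p6, 250 bases before to 50 after a start) were matched for 45 of the 53 genes (not Mcm4, Gmnn, Gins1, Gins2, Pole, Fancd2, Prkdc or Xpc), and an E2F-like octamer was found in 15 of them (33.3%). The letters searched on both strands were TTTCCCGC, TTTCGCGC, TTTGCCGC and TTTGGCGC, with overlapping matches merged. A match lay in 10 of 21 replication genes (47.6%), namely Orc1, Cdc6, Cdt1, Mcm3, Mcm5, Mcm6, Mcm7, Pola1, Pold1 and Lig1. It lay in 2 of 9 recombination genes (Bard1 and Brca2), in 1 of 7 end-joining genes (Xrcc6), in 1 of 4 checkpoint kinases (Chek2) and in 1 of 4 excision and mismatch genes (Msh6). Of the 8302 tested genes with a promoter 5.02% held a match, and of all 27025 genes with one 2.60%. The E-box CACGTG, which MYC and MAX bind, was found in 6 of the 45 genes (13.3%) against 12.5% of the tested genes, and CCAAT, on either strand, in 27 (60.0%) against 43.7%. A match is a run of letters, not a measured binding site. The windows below are shown because they span what the comparison found: a licensing gene whose libraries overlapped between the lines (Mcm6), an end-joining gene with an E2F-like match (Xrcc6), and the gene that passed the test (Lig4). Each runs 5′ to 3′ on the gene's strand, and capitals mark E2F-like matches.
Mcm6, chr1:128359656-128359955, minus strand: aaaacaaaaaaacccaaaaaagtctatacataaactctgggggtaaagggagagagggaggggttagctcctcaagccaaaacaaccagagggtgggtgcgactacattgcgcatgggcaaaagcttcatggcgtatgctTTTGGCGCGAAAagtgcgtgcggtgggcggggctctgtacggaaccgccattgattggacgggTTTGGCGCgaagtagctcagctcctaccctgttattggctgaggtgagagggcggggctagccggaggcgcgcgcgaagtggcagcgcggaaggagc
Xrcc6, chr15:82016119-82016418, plus strand: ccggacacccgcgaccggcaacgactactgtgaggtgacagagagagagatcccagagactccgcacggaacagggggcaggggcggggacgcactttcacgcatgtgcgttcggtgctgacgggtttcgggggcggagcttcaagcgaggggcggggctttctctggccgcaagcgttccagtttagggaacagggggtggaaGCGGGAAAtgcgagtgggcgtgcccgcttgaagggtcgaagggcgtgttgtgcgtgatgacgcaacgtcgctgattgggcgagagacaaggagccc
Lig4, chr8:9976262-9976561, minus strand: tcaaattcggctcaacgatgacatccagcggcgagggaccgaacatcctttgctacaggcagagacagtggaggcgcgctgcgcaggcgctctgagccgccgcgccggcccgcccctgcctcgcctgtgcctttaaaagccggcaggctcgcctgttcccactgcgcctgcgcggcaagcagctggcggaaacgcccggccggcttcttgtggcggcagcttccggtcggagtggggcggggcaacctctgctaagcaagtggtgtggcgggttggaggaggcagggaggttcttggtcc
In Mcm6 the matches begin 110 and 47 bases upstream of the start, and in Xrcc6 46 bases upstream. The Lig4 window shown and a second at chr8:9977631-9977930 held no E2F-like octamer, no CACGTG and no CCAAT.

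Between the lines, the replication genes differed little, and a single gene of the 53 differed by the test. Lig4, which encodes the ligase of end joining, rose 1.25-fold in resistant cells in edgeR, but was not called by DESeq2 or when either resistant library was left out. Of the 26 replication genes 0 were called in edgeR, 3 had an unadjusted p below 0.05, and DESeq2 and limma-voom also called 0 (1 and 4 at an unadjusted p below 0.05). Their median log2 change was -0.00, with 13 positive and 13 negative values, beside 0.00 over all tested genes, and reached 0.01 with library size only or upper-quartile factors. A gene was called at an adjusted p below 0.05 in edgeR's quasi-likelihood test over all 11945 genes. The background was 3.73% of tested genes called in either direction and 2.20% called higher in resistant cells, against 1 of the 53 members (1.89%). An unadjusted p below 0.05 was found for 8 members (15.1%) against 16.9% of tested genes. In 23 members (43.4%) both resistant libraries lay on one side of both sensitive ones, 14 above and 9 below, against 47.3% of tested genes.

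**Figure D1:**
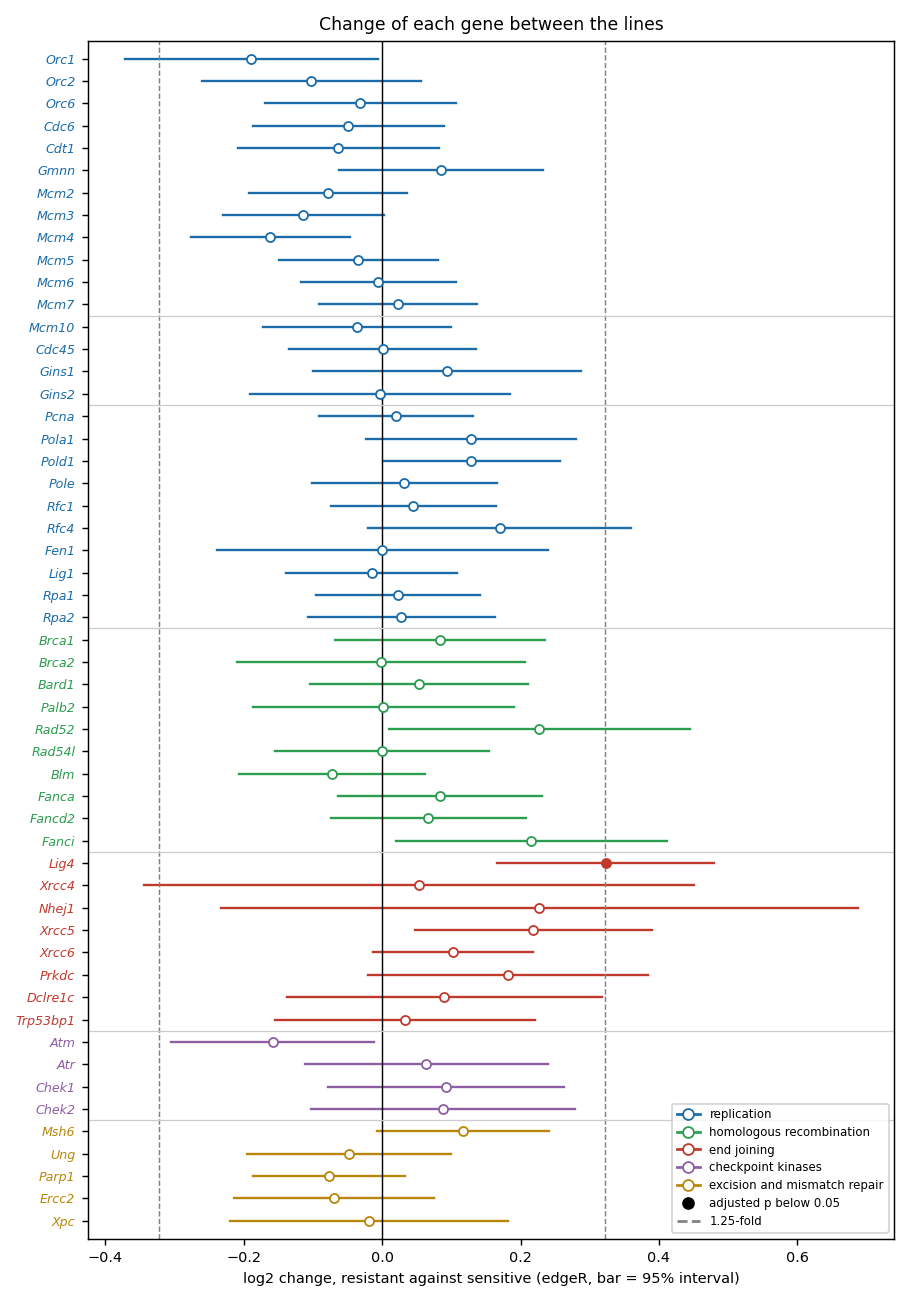
Log2 change of each of the 53 genes between the resistant and the sensitive line (edgeR), with its 95% interval as a bar, coloured by role; the dashed lines stand at 1.25-fold either way. Lig4 is the filled point, at 0.32, and 24 of the 26 replication intervals lie between the dashed lines.

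The 95% intervals show how large a difference between the lines the libraries could still hold. For 24 of 26 replication genes (92.3%) the whole interval lay within 1.25-fold in either direction, and for all 26 within 1.5-fold. Among all tested genes between the lowest and the highest mean CPM of the replication genes, the interval lay within 1.25-fold for 78.6%. Levels within that range were not matched, so the shares of 92.3% and 78.6% are not from genes of like level. The exceptions among the replication genes were Orc1, with an interval of 0.773-fold to 0.996-fold, and Rfc4, with 0.986-fold to 1.28-fold. These intervals are per gene and are not adjusted for the number of genes.

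The Mcm2 to Mcm7 subunits, which form the ring of the replicative helicase, were among the most abundant of the 53 by CPM per kb and differed little between the lines. Mcm6 stood at 559 and 554 CPM in sensitive against 562 and 546 CPM in resistant libraries. The log2 change of Mcm6 was -0.01 ± 0.05 (SE), with an interval of 0.922-fold to 1.08-fold. Mcm7 stood at 511 and 535 CPM in sensitive against 535 and 528 CPM in resistant cells (log2 change 0.02). The libraries of the lines overlapped for both genes. For the other 4 subunits both resistant libraries lay below both sensitive ones (66.7% of the 6). Over all 11945 tested genes 2777 were separated in this direction, and 47.3% in either direction.

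Mcm4 had the widest gap of these, at 376 and 371 CPM in sensitive against 333 and 334 CPM in resistant libraries. The log2 change, -0.16 ± 0.05, did not pass the test (edgeR adjusted p = 0.125). Mcm3 stood at 468 and 490 against 438 and 447 CPM (log2 change -0.11, edgeR adjusted p = 0.307). Mcm2, at 442 and 443 against 425 and 413 CPM, and Mcm5, at 438 and 455 against 437 and 435 CPM, had log2 changes of -0.08 and -0.03. The values of the 2 libraries of a line lay close together for Mcm4. For Mcm2 the resistant libraries lay further apart, at 425 and 413 CPM, and the change did not pass the test (edgeR adjusted p = 0.501). For Mcm5 the lines nearly touch.

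Of the genes that recognise origins and load the helicase, Orc1 had the most negative log2 change of the 53. This gene, for the largest subunit of the origin recognition complex, stood at 41.2 and 37.1 CPM in sensitive against 35.4 and 33.6 CPM in resistant cells (log2 change -0.19 ± 0.09, edgeR adjusted p = 0.279). Orc2, another subunit, stood at 168 and 140 CPM in sensitive against 144 and 145 CPM in resistant cells, so that only sensitive replicate 1 stood apart. Orc6 (log2 change -0.03), the ATPase Cdc6 (-0.05) and the loading factor Cdt1 (-0.06) had overlapping libraries. Gmnn encodes geminin, which binds Cdt1 and prevents a second round of licensing. It stood at 75.4 and 69.9 CPM in sensitive against 75.3 and 79.0 CPM in resistant cells (0.09). Of the 12 licensing genes 10 had negative log2 changes (Mcm6 turned positive with library size only or upper-quartile factors), and the median was -0.06. When some single libraries were left out, Orc2, Orc6, Cdc6, Cdt1 and Mcm6 turned positive and Mcm7 negative. In 5 of the 12 (41.7%) both resistant libraries lay below both sensitive ones, and in 0 above. Over all 11945 tested genes the lines did not overlap in 47.3%, with 2777 genes below and 2876 above. In edgeR 0 of the 12 were called (2 at an unadjusted p below 0.05). Of the exonic bases of Orc2 29.8% overlap Nif3l1 on the opposite strand.

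The libraries of the lines overlapped for all 4 genes of helicase activation, as they did for 6292 of the 11945 tested genes. Cdc45, a core part of the active helicase, stood at 89.6 and 91.0 CPM in sensitive against 91.6 and 89.0 CPM in resistant cells, a log2 change of 0.00 with an interval of 0.911-fold to 1.10-fold. Mcm10, which helps the helicase to start, had a log2 change of -0.04. The GINS subunits Gins1 and Gins2 had log2 changes of 0.09 and -0.00. When some single libraries were left out, Mcm10 and Gins2 turned positive and Cdc45 and Gins1 negative. The signs of Cdc45 and Gins2 also moved with the scaling. Of the exonic bases of Gins2 67.3% overlap Gse1 on the opposite strand, and the strand setting of the counting is not given in the sources used here, so reads of these genes cannot be told apart.

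Among 10 genes that synthesise DNA at the fork the median was 0.03, with 9 above zero, of which Fen1 was negative with DESeq2 size factors. When some single libraries were left out, Pole, Rpa1, Rpa2 and Fen1 turned negative and Lig1 positive. In edgeR 0 were called (1 at an unadjusted p below 0.05). Pcna, the sliding clamp that holds polymerases on DNA, stood at 486 and 483 CPM in sensitive against 490 and 492 CPM in resistant cells (log2 change 0.02). Pold1, the catalytic subunit of polymerase delta, stood at 178 and 195 against 204 and 203 CPM (0.13 ± 0.06, edgeR adjusted p = 0.293). Pola1, of the polymerase that starts each strand, stood at 114 and 101 against 113 and 123 CPM (0.13), and Pole, of the leading-strand polymerase, at 171 and 191 against 186 and 184 CPM (0.03). For Pcna and Pold1 both resistant libraries were the higher ones, while Pola1 and Pole overlapped.

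The clamp loader genes Rfc1 and Rfc4 had log2 changes of 0.04 and 0.17. Rfc4 stood at 58.5 and 47.2 CPM in sensitive against 58.3 and 61.3 CPM in resistant cells, so that sensitive replicate 2 was the low library and the other three were alike. Lig1, the ligase that joins Okazaki fragments, stood at 264 and 287 against 273 and 272 CPM (-0.02). Rpa1 and Rpa2, which coat single-stranded DNA, had log2 changes of 0.02 and 0.03. Fen1, the nuclease that trims Okazaki flaps, stood at 19.3 and 17.1 against 17.4 and 19.1 CPM (0.00). Of its exonic bases 84.2% overlap genes on the opposite strand, among them Tmem258, so its level depends on how such reads were counted.

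**Figure D2:**
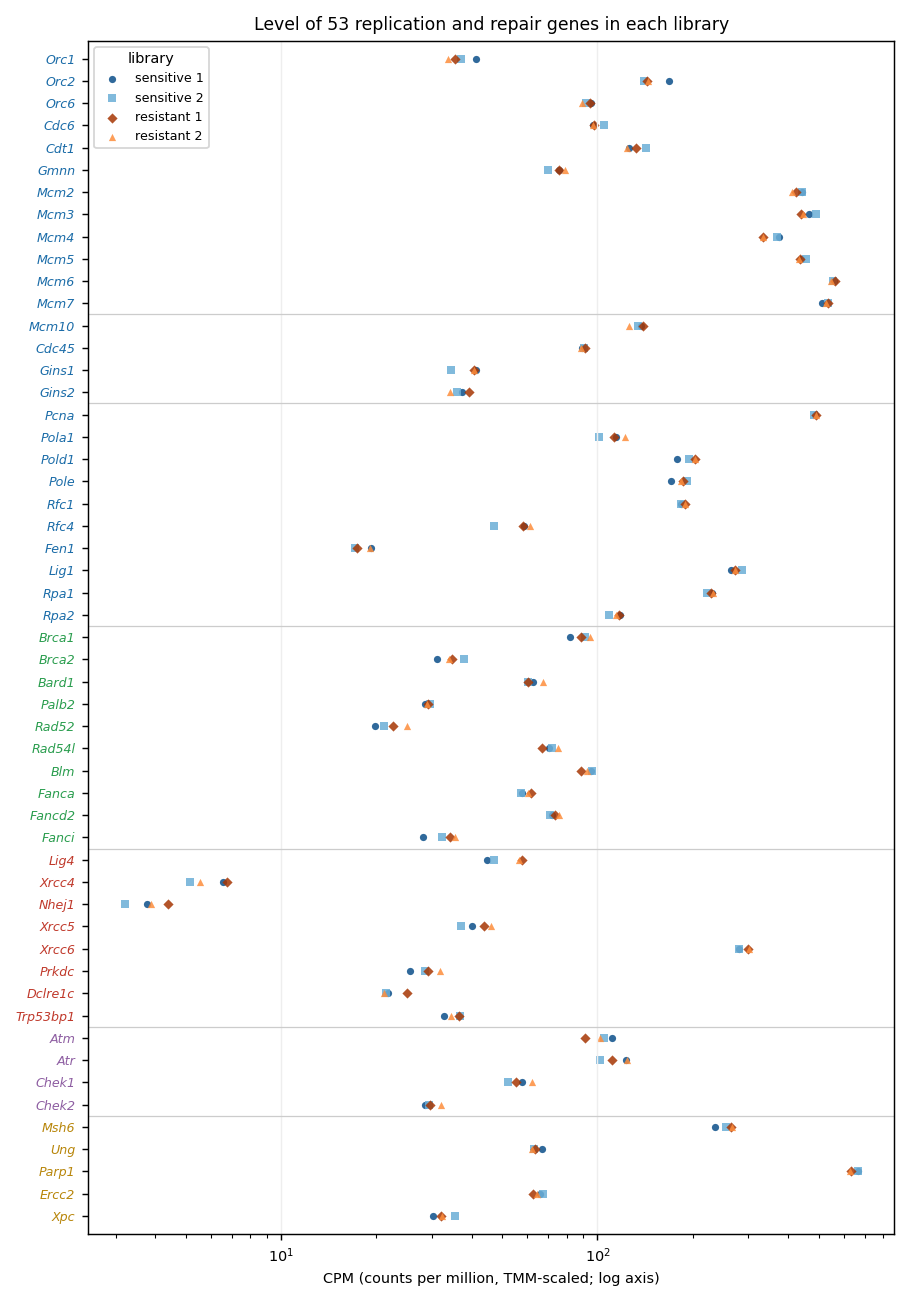
CPM (log axis) of each of the 53 genes in each of the 4 libraries, with lines between roles. Points of the lines lie close together for most genes. Mcm2 to Mcm7, Pcna and Parp1 form the right-hand edge, and Nhej1 and Xrcc4 the left.

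In homologous recombination 0 of 10 genes were called by any of edgeR, DESeq2 and limma-voom. At an unadjusted p below 0.05 there were 2 in edgeR, 0 in DESeq2 and 2 in limma-voom. The median log2 change was 0.06, with 8 positive and 2 negative values, of which Palb2, Rad54l and Brca2 lay so near zero that their sign moved with the scaling. Bard1 was negative without resistant replicate 2. Brca1, which prepares broken ends for repair, stood at 82.0 and 91.5 CPM in sensitive against 88.5 and 94.9 CPM in resistant cells (log2 change 0.08). Its partner Bard1 (0.05), Palb2, which links Brca1 to Brca2 (0.00), and Brca2, which loads the recombinase (-0.00), had overlapping libraries. The interval of Brca2 was 0.865-fold to 1.15-fold and that of Palb2 0.879-fold to 1.14-fold.

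The 2 recombination genes with the largest differences were Rad52 and Fanci. Rad52, a strand-annealing protein, stood at 19.8 and 21.1 CPM in sensitive against 22.6 and 25.1 CPM in resistant cells (log2 change 0.23 ± 0.10, edgeR adjusted p = 0.274). Fanci, a partner of Fancd2 in crosslink repair, stood at 28.1 and 32.3 against 34.2 and 35.4 CPM (0.22 ± 0.09, edgeR adjusted p = 0.241). The lines did not overlap in either gene, but neither passed the test. Fanca, of the Fanconi core complex, and Fancd2 had log2 changes of 0.08 and 0.07. The motor protein Rad54l stood at 0.00, and the helicase Blm, at 95.1 and 95.9 against 89.0 and 92.6 CPM, at -0.07.

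Every one of the 8 end-joining genes had a log2 change above zero, under each scaling too, although Xrcc4, Dclre1c and Trp53bp1 had negative values when some single libraries were left out. Their median was 0.14, and 1 of them, Lig4, rose by the test. Lig4 (ENSMUSG00000049717, chromosome 8 at 9969049 to 9977686 on GRCm38) stood at 44.7 and 47.0 CPM in sensitive against 57.9 and 56.6 CPM in resistant libraries, from 580, 484, 633 and 673 counts. Both resistant libraries lay above both sensitive ones by more than the gap within either line. The log2 change was 0.32 ± 0.07, or 1.25-fold with an interval of 1.12-fold to 1.39-fold (edgeR adjusted p = 0.0197). DESeq2 gave the same size of change, 0.32, and did not call it (adjusted p = 0.270). Without resistant replicate 1 the log2 change was 0.31 (edgeR adjusted p = 0.205) and without resistant replicate 2 it was 0.34 (edgeR adjusted p = 0.134), so the call was also lost when either resistant library was left out. None of the 50-base words of the Lig4 transcript occur in transcripts of a gene at another position. None of its exonic bases overlap an exon of a gene on the opposite strand.

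**Figure D3:**
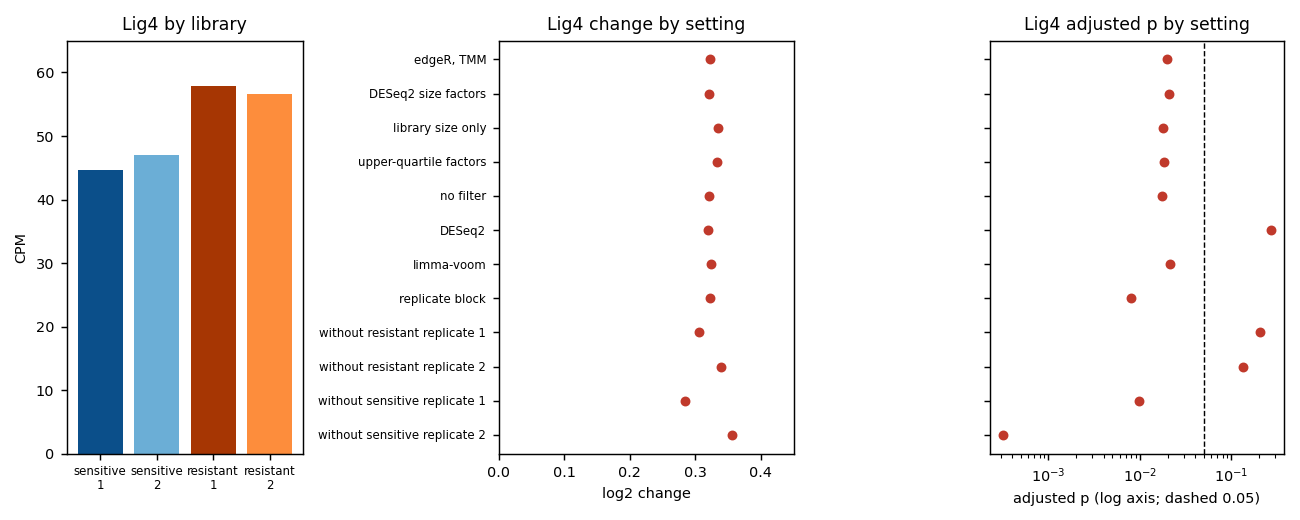
Lig4 in CPM by library (left), its log2 change under each setting (middle) and the adjusted p of that setting on a log axis, with 0.05 dashed (right). The change stays between 0.28 and 0.36, while the adjusted p crosses 0.05 in DESeq2 and without either resistant replicate.

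The proteins that work with DNA ligase IV were not called. Xrcc4, its obligate partner, had few counts, at 6.55 and 5.15 CPM in sensitive against 6.77 and 5.56 CPM in resistant cells (log2 change 0.05 ± 0.19). Nhej1 encodes XLF, which binds Xrcc4. It stood at 3.78 and 3.21 against 4.39 and 3.87 CPM (0.23 ± 0.22), and its interval of 0.851-fold to 1.61-fold was the widest of the 53 genes. The interval of Xrcc4 was 0.788-fold to 1.37-fold, so both intervals hold the 1.25-fold change of Lig4 as well as no change.

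Of the proteins that hold broken ends, Xrcc5 (Ku80) stood at 40.0 and 37.0 CPM in sensitive against 43.8 and 46.0 CPM in resistant cells (log2 change 0.22 ± 0.08, edgeR adjusted p = 0.166). Its partner Xrcc6 (Ku70) stood at 280.0 and 279.6 against 298 and 302 CPM (0.10 ± 0.05, edgeR adjusted p = 0.369). Prkdc, the kinase that Ku recruits, stood at 25.5 and 28.5 against 29.2 and 31.7 CPM (0.18 ± 0.10, edgeR adjusted p = 0.356). In these genes, as in Lig4 and Nhej1, both resistant libraries were the higher ones, which makes 5 of 8 end-joining genes (62.5%) against 24.1% of tested genes. The end-processing nuclease Dclre1c (Artemis, log2 change 0.09) and Trp53bp1, which favours end joining over recombination (0.03), overlapped. Without Lig4 the other 7 had a median of 0.10 and 0 calls by edgeR, DESeq2 and limma-voom alike. At an unadjusted p below 0.05 these tools gave 1, 0 and 1.

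**Figure D4:**
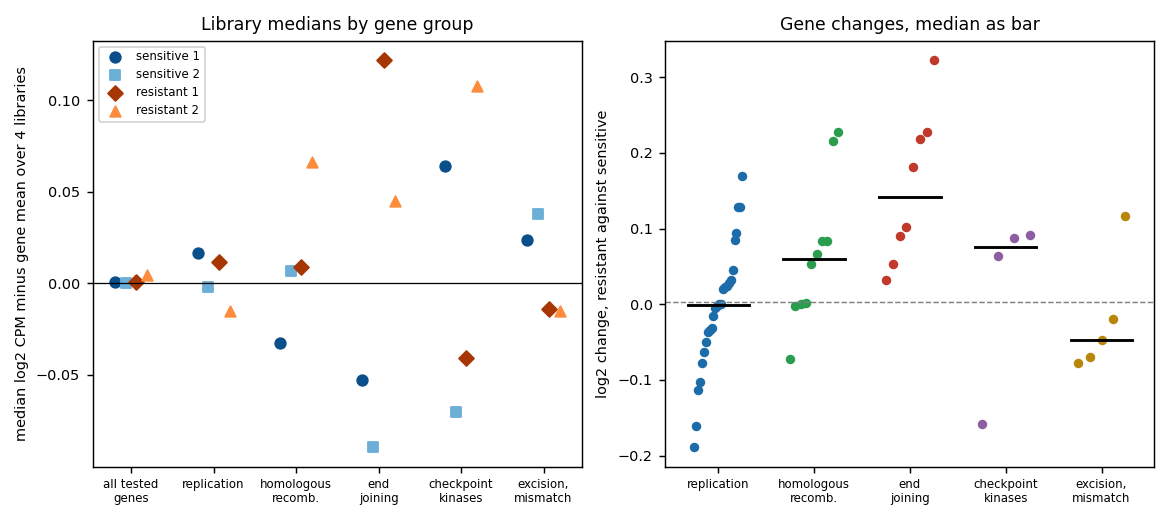
Left, the median log2 CPM of each group of genes in each library, after taking from each gene its mean over the 4 libraries; right, the log2 change of every gene, with the group's median as a bar and the median of all tested genes dashed. End joining is the group with the largest median, 0.14, and the replication median lies next to the dashed line.

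Read by library, the end-joining genes had medians of -0.05 and -0.09 (sensitive) and 0.12 and 0.04 (resistant), as log2 CPM relative to each gene's mean. The replication genes had 0.02 and -0.00 in sensitive and 0.01 and -0.02 in resistant cells, with the lines overlapping. The recombination genes had -0.03 and 0.01 against 0.01 and 0.07, with resistant replicate 2 the highest. Without that library the median log2 change of the recombination genes was 0.02. No test was made of a difference between these groups of genes.

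The checkpoint kinases, which slow the cycle when DNA is damaged, had log2 changes of both signs, and 0 of 4 were called by edgeR, DESeq2 and limma-voom alike (1, 0 and 1 at an unadjusted p below 0.05). Their median log2 change of 0.08 turned to -0.01 without resistant replicate 2 and to -0.02 without sensitive replicate 2. Atm, which responds to double-strand breaks, stood at 111 and 105 CPM in sensitive against 91.4 and 102 CPM in resistant cells (log2 change -0.16 ± 0.07, edgeR adjusted p = 0.255). Atr, which responds to stalled forks, stood at 123 and 101 against 111 and 124 CPM (0.06). Its effector Chek1 stood at 57.6 and 52.1 against 55.2 and 62.0 CPM (0.09), and the Atm effector Chek2 at 28.6 and 29.4 against 29.6 and 32.0 CPM (0.09). Atr and Chek1 overlapped between the lines, with a wide gap within each line.

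Among 5 genes of excision and mismatch repair 0 were called by edgeR, DESeq2 and limma-voom alike, and 0 had an unadjusted p below 0.05 in any of them. Parp1, the sensor of strand breaks, had the highest CPM of the 53 genes before correction for length, at 664.5 and 663.9 CPM in sensitive against 631 and 628 CPM in resistant cells (log2 change -0.08 ± 0.05, edgeR adjusted p = 0.486). Msh6, a subunit of the mismatch sensor, stood at 235 and 255 against 264 and 267 CPM (0.12). Ung, which removes uracil from DNA (-0.05), and the nucleotide excision genes Ercc2 (-0.07) and Xpc (-0.02) completed the group. Of the exonic bases of Ercc2 42.4% overlap genes on the opposite strand.

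Levels between genes were compared as CPM per kb of the principal transcript. Pcna led at 321 CPM per kb, followed by Mcm6 at 191, Mcm7 at 178, Parp1 at 167 and Mcm3 at 152. The Mcm2 to Mcm7 subunits, which form a ring with a copy of each, spanned 98.5 (Mcm4) to 191 CPM per kb. The Ku partners stood further apart, at 88.0 CPM per kb for Xrcc6 and 16.3 for Xrcc5, and the ligase complex was low throughout, at 10.3 for Lig4, 3.90 for Xrcc4 and 3.62 for Nhej1. Prkdc was lowest at 2.27, below Brca2 at 3.21. Some of these levels are uncertain, because 31.8% of the 50-base words of the Pcna transcript also occur in Pcna-ps2 and 26.0% of those of Mcm7 in Gm5487. For Cdc6 8.25% occur in Gm9430, and for the other genes the share was at most 3.86%. This search left out genes whose position overlaps that of the member. It therefore does not cover the opposite-strand overlap of Fen1 (84.2% of exonic bases), Gins2 (67.3%) and Ercc2 (42.4%).

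Other genes of these pathways were read from a further list of 152 symbols, of which 147 were tested. One, Pold4, rose and 0 fell (0.68% called). Pold4 (chromosome 19 at 4231899 to 4233634 on GRCm38), the smallest subunit of polymerase delta, stood at 22.0 and 24.3 CPM in sensitive against 32.6 and 32.3 CPM in resistant cells (log2 change 0.49 ± 0.09, edgeR adjusted p = 0.00492). DESeq2 did not call it (adjusted p = 0.104), while it was called with each library left out in turn. Of the exonic bases of Pold4 24.6% overlap AC109138.7 on the same strand. Over the 147 genes 14 had an unadjusted p below 0.05 in edgeR, 11 of them higher and 3 lower in resistant cells. The medians were 0.02 over 38 replication genes, 0.06 over 35 recombination genes, 0.03 over 17 end-joining genes, 0.01 over 15 checkpoint genes and 0.02 over 42 excision and mismatch genes. The further end-joining genes, 10 positive and 7 negative, thus had a lower median than the 8 members.

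Markers of the cell cycle overlapped between the lines in their summed level, while many single markers did not. Their summed level was 6098 and 6379 CPM in sensitive against 6316 and 6305 CPM in resistant cells, over 26 genes analysed of 27. The lines did not overlap in 16 of the 26 (61.5%), 7 had an unadjusted p below 0.05 (26.9%) and 2 were called (7.69%), each a larger share than the 47.3%, 16.9% and 3.73% of all tested genes. Their part in the results on the 53 genes was not tested. Of the 26 markers 0 rose and 2 fell in edgeR, the mitotic kinase Plk1 (log2 change -0.25, edgeR adjusted p = 0.0231) and the G1 cyclin Ccnd3 (-0.33, edgeR adjusted p = 0.00621). Neither fall passed the test without resistant replicate 1 (edgeR adjusted p = 0.188 for Plk1 and 0.0745 for Ccnd3) or without resistant replicate 2 (0.368 and 0.128), and DESeq2 did not call Plk1 (adjusted p = 0.0773). E2f1, an activator of S-phase genes, stood at 57.3 and 63.6 against 67.5 and 70.4 CPM (0.19, edgeR adjusted p = 0.184).

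More members were called when a sensitive library was left out, where the 2 resistant libraries alone set the spread and the lone sensitive library is assumed to vary like them. The lists differed. Without sensitive replicate 1, 7 members were called (13.2%), against 11.3% of all genes: Pola1 (0.23), Rfc4 (0.34), Lig4 (0.28), Xrcc5 (0.28) and Atr (0.21) higher, and Mcm3 (-0.15) and Mcm4 (-0.15) lower. Without sensitive replicate 2, 8 members were called (15.1%), against 9.68% of all genes: Pold1 (0.19), Fanci (0.31), Lig4 (0.36) and Msh6 (0.17) higher, and Orc1 (-0.26), Orc2 (-0.22), Mcm4 (-0.17) and Atm (-0.20) lower. In these fits Lig4 had log2 changes of 0.28 and 0.36, and Mcm4 of -0.15 and -0.17. Both fits share the same 2 resistant libraries, so the lists are not independent. How many of all tested genes stood in both lists was not counted.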

How the data were processed

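The values are the authors' deposited counts, not normalized, one row per Ensembl gene, in 4 libraries. HTSeq, TopHat, Bowtie2, cutadapt 1.7, FastQC and limma are listed, without roles, in the submitters' processing notes, with builds mm10 and GRCm38. For strand setting and annotation release nothing is given in the sources used here. The smallest total of a row was 4 counts. Symbols, positions and transcripts came from GENCODE M21 (GRCm38), which matched 16407 of 16591 identifiers, and promoters from RefSeq (GRCm38.p6).

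Counts were fitted with edgeR 4.0.16 (glmQLFit, glmQLFTest) in R 4.3.3, with TMM factors, the filterByExpr filter (minimum count 10, minimum total 15) and a model of the group, and p-values were adjusted by Benjamini-Hochberg over 11945 genes. SE and 95% intervals come from the quasi-likelihood F statistic. Levels of genes are CPM with TMM-scaled library sizes, and summed levels of marker lists, and the worth of 1 count, are CPM of the plain library totals. Alternatives were 3 other scalings, no filter, DESeq2 1.42.0, limma-voom 3.58.1, the replicate number as a block and leaving out each library. The fit was tested on simulated data with known changes. The members and all lists were chosen with earlier results of these data known. All 53 members are named, with each gene of the further lists that passed the test. Other genes of those lists are given by counts, and the marker genes named (E2f1, Plk1, Ccnd3, Blk, Cd22) were chosen after their values were seen.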

Additional observations from a re-analysis of the deposited data

How the results depend on the processing

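With 2 libraries per line, the genes with the fewest counts, Nhej1 and Xrcc4, had the widest intervals, and intervals cover the spread between libraries only. The count of genes called was 445 in edgeR, 201 in DESeq2, and 270 to 1381 when a library was left out. The count of members called was 1 in edgeR, 0 in DESeq2 (2 at an unadjusted p below 0.05) and 0 to 8 with a library left out. The median of the replication genes was -0.0196 to 0.0165 with a library left out, that of recombination genes 0.0211 to 0.0811 and that of end-joining genes 0.118 to 0.190. The median of the excision and mismatch genes was -0.0477 in edgeR, -0.0356 with library size only, -0.0379 with upper-quartile factors and -0.0766 to -0.0336 with a library left out. The median of the checkpoint kinases was -0.0195 to 0.142 with a library left out, within the spread between libraries. All other counts stayed within 1.5 times, and all other medians within that spread. For single genes, 0 of 594 alternative values reversed a called direction, 4 lost a call and 13 gained one, all 13 without a sensitive library. Uncalled log2 changes changed sign 55 times, in 24 members, with sizes of up to 0.10 before and 0.14 after the change. The labels do not say whether same-numbered libraries share a batch. The correlation of their deviations from the line means was -0.0201, and with the replicate block 595 genes and 1 member were called. The cause of these changes was not tested.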
